A study of Homo sapiens with 2 samples.

Results

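The genes described here are those of NRF2 signalling and antioxidant defence. They were chosen by name from a fixed list of 35 symbols, of which 34 named a row of the deposited table; for GPX1 no reads were analysed here, and it enters the promoter search alone. SOD2 named 2 rows, so the set held 35 of the 36814 windows of the table. The measurement was precision run-on sequencing (PRO-seq), in which RNA polymerases already on the DNA run on for a short time with biotin-labelled nucleotides, so that reads report transcription under way. The cells were K562, an established human leukaemia line from chronic myelogenous leukaemia with erythroid features, grown in RPMI with 10% serum. There was 1 library from untreated cells and 1 library from cells kept for 1 h in 0.1% DMSO, a common drug solvent, and neither group carried any other treatment or allele. With 1 library per group no value has a replicate check and no test between the groups was possible.

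NRF2, encoded by NFE2L2, is a transcription factor that pairs with small MAF proteins and binds antioxidant response elements. KEAP1 holds it in the cytosol and hands it to a ubiquitin ligase, and reactive compounds that modify KEAP1 let NRF2 accumulate. Its targets include enzymes that make and recycle glutathione and thioredoxin, supply NADPH, store iron and break down heme and quinones. K562 cells make hemoglobin and take up much iron, which ties heme and ferritin genes to their erythroid character.

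The antioxidant response element is the sequence through which NRF2 acts, so its core was looked for in the reference promoters of these genes. RefSeq promoters (GRCh38.p14, 250 bases before to 50 after each start) were matched by symbol for 27 of the 35 genes, with 40 starts; HMOX1, GSR, GSS, FTH1, PRDX1, PRDX6, SOD1 and ABCC1 were not matched. The core TGACNNNGC, searched on both strands, lay in promoters of 6 of the 27 genes, against 16.1% of 27305 symbols in the table. The looser TGANNNNGC, which contains the core, lay in 17 of 27, against 47.1%. These shares were not tested, and a match describes letters and shows no binding. The stretches below show the core in capitals, 5′ to 3′ in the gene's direction. Those of GCLM, GSTP1, ME1 and PGD end at the base before the RefSeq start, and that of the upstream TXNRD1 start ends at the start itself. They are chr1:93909431-93909680 (minus strand) for GCLM, chr11:67583562-67583811 (plus) for GSTP1, chr6:83431052-83431301 (minus) for ME1, chr1:10398814-10399063 (plus) for PGD and chr12:104215529-104215779 (plus) for TXNRD1. The shorter stretches are chr12:104286920-104286948 (plus) before the downstream TXNRD1 start, and chr19:10502807-10502835 and chr19:10502784-10502812 (both minus) before the downstream KEAP1 start.
GCLM: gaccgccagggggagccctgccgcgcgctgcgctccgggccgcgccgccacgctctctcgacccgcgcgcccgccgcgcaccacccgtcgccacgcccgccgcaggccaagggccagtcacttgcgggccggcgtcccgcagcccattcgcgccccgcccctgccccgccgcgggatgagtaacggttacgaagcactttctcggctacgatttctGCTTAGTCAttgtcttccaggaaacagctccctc
GSTP1: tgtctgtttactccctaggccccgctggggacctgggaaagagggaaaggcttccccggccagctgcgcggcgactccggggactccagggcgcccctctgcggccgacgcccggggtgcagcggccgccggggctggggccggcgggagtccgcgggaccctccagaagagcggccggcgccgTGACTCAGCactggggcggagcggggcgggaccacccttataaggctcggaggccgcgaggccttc
ME1: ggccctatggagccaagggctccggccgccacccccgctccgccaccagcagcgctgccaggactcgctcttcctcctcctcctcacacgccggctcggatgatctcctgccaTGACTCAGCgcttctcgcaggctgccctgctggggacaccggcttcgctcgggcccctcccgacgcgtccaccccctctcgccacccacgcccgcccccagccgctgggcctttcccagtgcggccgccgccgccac
PGD: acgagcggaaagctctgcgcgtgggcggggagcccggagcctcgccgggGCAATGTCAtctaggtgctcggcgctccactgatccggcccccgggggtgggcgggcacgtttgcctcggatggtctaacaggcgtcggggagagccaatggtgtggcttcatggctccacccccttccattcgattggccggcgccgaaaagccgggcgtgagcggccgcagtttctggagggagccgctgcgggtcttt
TXNRD1, upstream start: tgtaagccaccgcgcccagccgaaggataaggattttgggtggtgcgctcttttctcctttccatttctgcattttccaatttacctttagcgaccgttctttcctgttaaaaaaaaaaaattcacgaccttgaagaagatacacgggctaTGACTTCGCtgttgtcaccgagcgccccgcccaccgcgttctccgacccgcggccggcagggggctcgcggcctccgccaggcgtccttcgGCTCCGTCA
TXNRD1, downstream start: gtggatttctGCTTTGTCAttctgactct
KEAP1, distal match: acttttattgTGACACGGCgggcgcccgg
KEAP1, proximal match: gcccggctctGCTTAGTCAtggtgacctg

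GCLM and KEAP1 carried the same letters, GCTTAGTCA, which read TGACTAAGC on the other strand, ending 26 bases before the GCLM start and 23 before the downstream KEAP1 start. GSTP1 and ME1 shared TGACTCAGC, which also holds the AP-1 heptamer TGACTCA. A further core match of ME1, not shown, lies 12 to 20 bases past its start. The AP-1 heptamer lay in promoters of 3 of the 27 genes (GSTP1, ME1 and OSGIN1), against 6.05% of symbols, and the E-box CACGTG in 4 (GPX1, MAFG, PRDX3 and PRDX4), against 8.77%. The TATA box TATAAA lay in promoters of 3 genes, against 14% of symbols. Counted by promoter it lay in 3 of 40, against 11.5% of all promoters and 5.12% of those in windows past the floor, so no direction is read from it. In TXN, the thioredoxin gene, it lay 25 to 30 bases before the start, and a match of the opposite strand overlaps it (capitals, chr9:110256508-110256557, minus strand).
TXN: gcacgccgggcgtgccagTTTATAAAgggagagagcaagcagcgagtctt

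What each count could measure was set by the windows. Each window spans 6000 bases, 3 kb to either side of an annotated gene start, on the human genome hg38, and many windows overlap. All 1154 windows without a base of their own held 0 reads, so reads in bases that windows share are taken here as not counted. Of the 35 windows here, 15 shared bases with another, 11 had under 1 kb of their own, and 4 had none. The RefSeq start of the gene lay inside the window in 30 cases, but in unshared bases in 21. In 10 windows none of the unshared bases lay in the gene's RefSeq span, and 5 of these still held reads. The untreated library had 2136291 reads, of which 4 ribosomal RNA windows took 71.5%, and the DMSO library 4154920, of which they took 42.2%. CPM, counts scaled to a library's total, therefore do not compare the libraries, and 3 reads equal 1.40 CPM untreated and 0.722 CPM with DMSO.

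**Figure D1:**
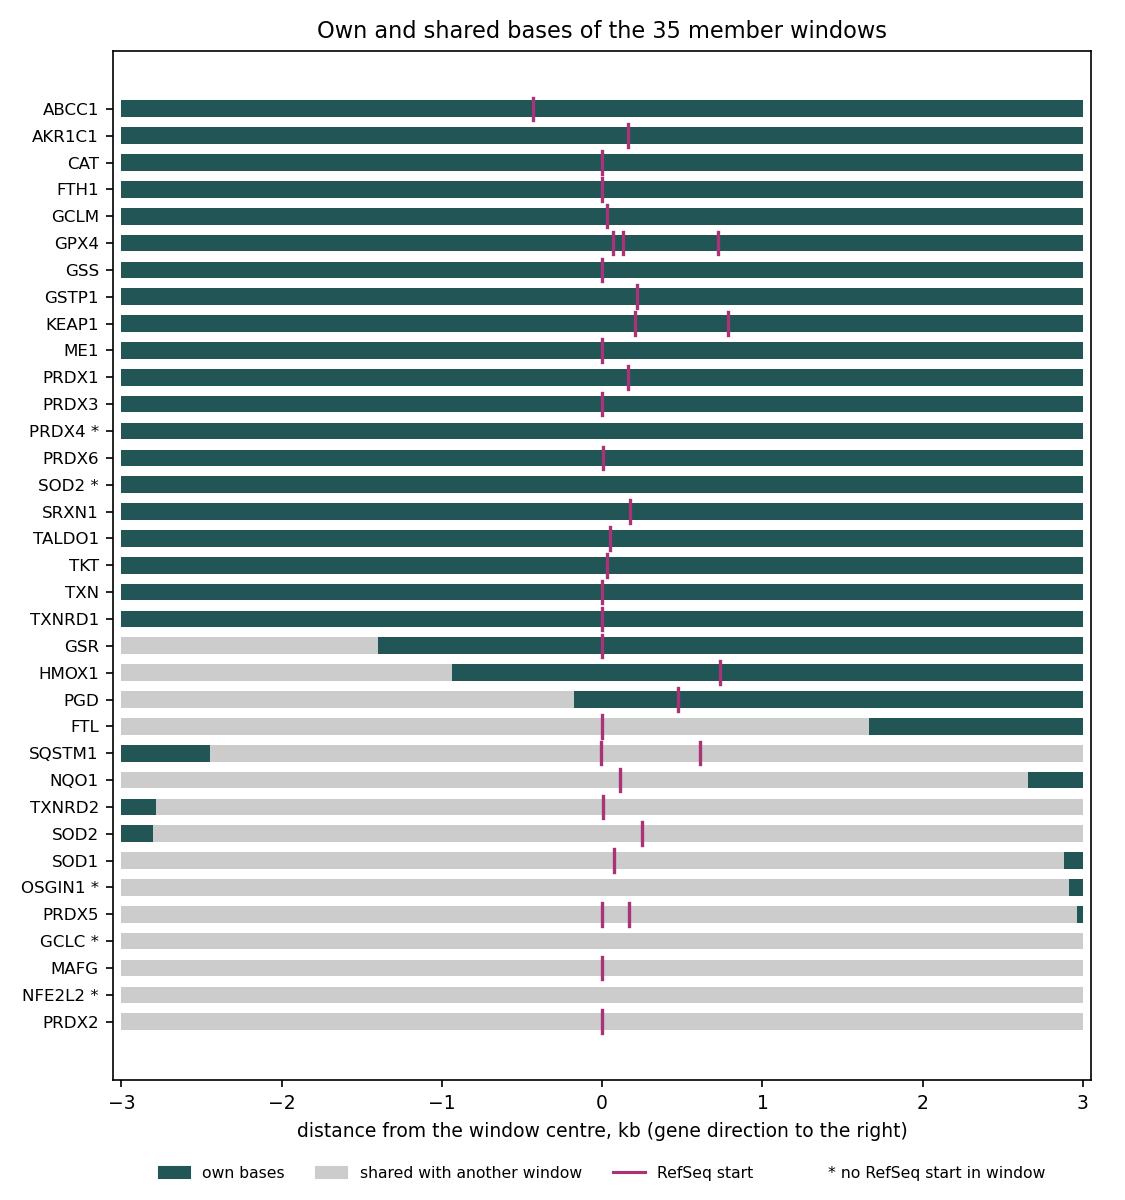
Unshared bases (dark), bases shared with another window (grey) and RefSeq starts (vertical lines) in the 35 windows, as distance from the window centre in kb with the gene's direction to the right; an asterisk marks a window without a RefSeq start. The windows of FTL, SQSTM1, NQO1, TXNRD2, SOD1, PRDX5 and the SOD2 window without an asterisk hold their starts in grey bases, and those of GCLC, MAFG, NFE2L2 and PRDX2 are grey throughout.

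Most windows of the set held reads. At least 1 CPM in both libraries was reached by 25 of the 35 windows, against 34.7% of all windows. Among these are FTL, SQSTM1, TXNRD2 and PRDX4, none of whose unshared bases lie in the gene's RefSeq span. The 25 therefore counts windows with reads and not genes whose transcription was read. A floor of 5 CPM on average and 100 reads over both libraries was passed by 18, against 17.9% of all windows. A window can pass it through its DMSO reads alone. Of the 18, 16 held the RefSeq start in unshared bases, and those of FTL and SOD2 did not. Of the 17 windows below the floor, 11 had under 1 kb of their own. Of the 6 with more, PRDX4 held no RefSeq start, and ABCC1, AKR1C1, HMOX1, ME1 and TXNRD1 did.

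Levels are compared between genes as CPM per kb of unshared bases, within 1 library at a time, with exact Poisson intervals at 95% that cover counting error only. Among 28070 windows with at least 1 kb of their own, the median of the mean of both libraries was 0.253 CPM per kb and the 90th percentile 7.41. Of the 24 windows here with that much, 9 lay above that percentile. FTH1, the heavy chain of the iron store ferritin, had the highest level of windows whose unshared bases include the start, 29.4 CPM per kb untreated (26.5 to 32.5) and 77.6 with DMSO (74.2 to 81.1). PRDX1, a cytosolic peroxiredoxin, had 10.8 (9.05 to 12.7) and 49.5 (46.8 to 52.4). GPX4, the glutathione peroxidase that reduces lipid peroxides, had 9.52 (7.90 to 11.4) and 40.6 (38.2 to 43.2). KEAP1 had 11.3 (9.55 to 13.3) and 34.3 (32.0 to 36.7). In the DMSO library these 4 intervals did not overlap. In the untreated library those of PRDX1, GPX4 and KEAP1 did, together with GSTP1 at 9.52, PGD at 8.99 and TALDO1 at 8.74, so that their order there is not resolved. The 3176 unshared bases of PGD run from -176 to 2999 of the window centre, while GSTP1 and TALDO1 have all 6000. Levels per kb thus cover unlike parts of these genes, which the intervals do not include. At the low end of the windows past the floor stood GCLM with 1.56 and 4.65, and CAT, catalase, with 1.56 and 3.85. The SOD2 window without a start of that gene had 2.42 and 3.41, the lowest DMSO level of the 18. In the untreated library TKT, at 1.87, stood below that SOD2 window, with overlapping intervals. Ferritin, thioredoxin and other genes here have near-identical processed copies elsewhere in the genome, and how such reads were counted is not given in the sources used here.

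**Figure D2:**
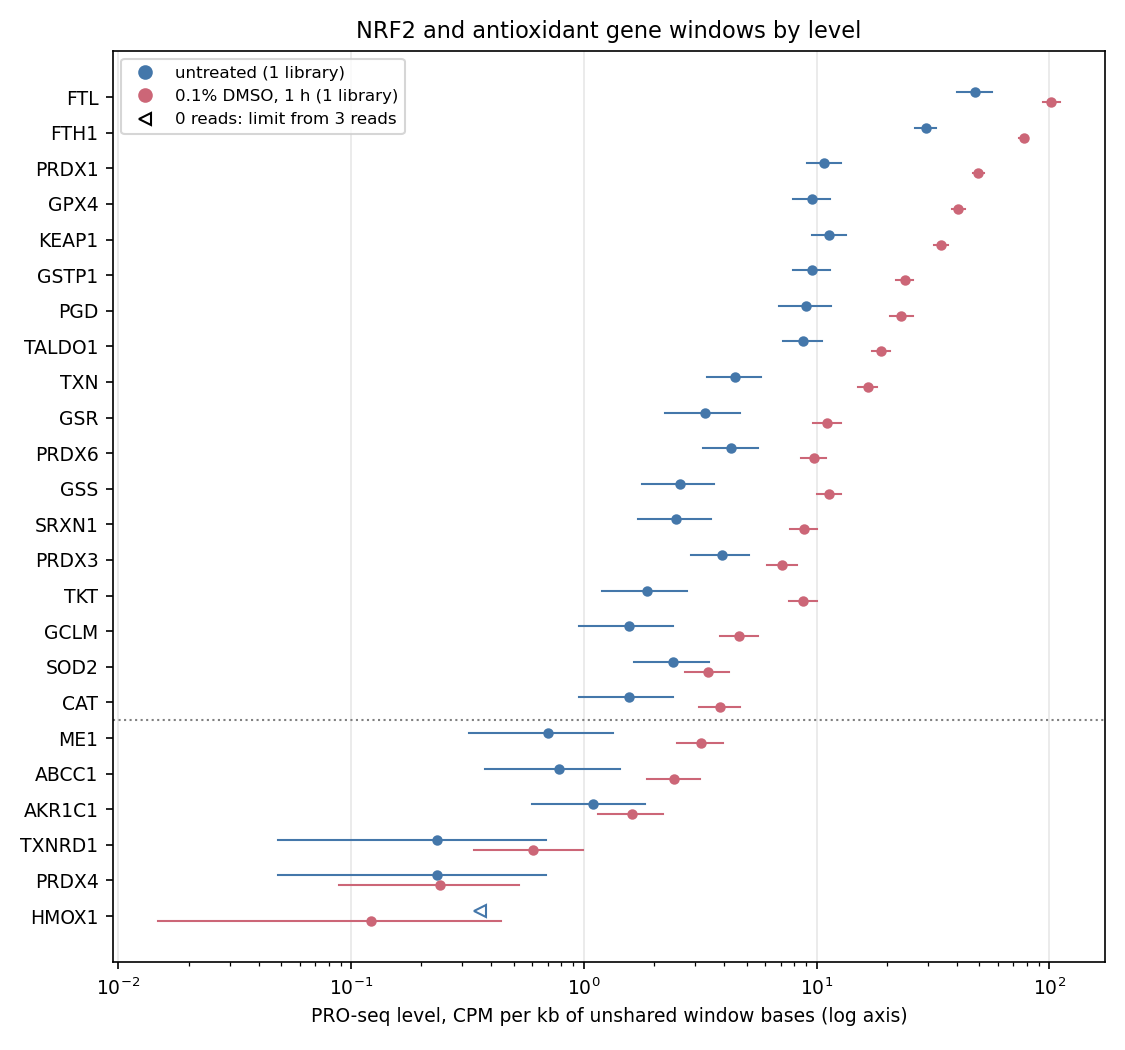
Level of the 24 windows with at least 1 kb of unshared bases, in CPM per kb on a log axis, untreated (blue) and DMSO (red), with exact Poisson intervals; the dotted line divides windows past the floor from those below, and the triangle is the limit of 3 reads for a count of 0. FTL and FTH1 are the highest in both libraries and HMOX1, with 0 and 2 reads, the lowest.

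The DMSO and untreated libraries were compared through the log2 ratio of TMM-scaled counts, given relative to the median of the 6591 windows past the floor. In such bulk libraries fewer cells of a type and less RNA per cell cannot be told apart. The median window stood at 0.31 on the TMM scale and at 1.27 with library totals. Intervals of ratios are exact Clopper-Pearson intervals at 95% for counting error. Across all windows past the floor the ratio spanned -0.90 to 0.87 from the 10th to the 90th percentile, which is the yardstick for how far windows of these libraries scatter. No member lay 2-fold above the median window, against 7.04% of all windows, and none lay 2-fold below it, against 7.97%. Without centring 4 of the 18 lay 2-fold higher and 0 lower on the TMM scale, against 15% and 3.37% of all windows. With library totals 16 lay higher and 0 lower, against 66% and 0.47%, on a scale where the median window itself is past 2-fold. The members' median was 0.21, with quartiles of -0.07 and 0.60, where all windows have 0 by construction and quartiles of -0.44 and 0.44. Of the 18, 13 stood above the median window, against 50% of all, and 5 below. On the uncentred TMM scale PRDX3 and SOD2 alone remained below 0, and with library totals none did. Intervals lay wholly above the median window for 6 (KEAP1, GPX4, GSS, PRDX1, TXN and TKT), against 22.5% of all windows, and wholly below it for SOD2, against 24.5%.

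**Figure D3:**
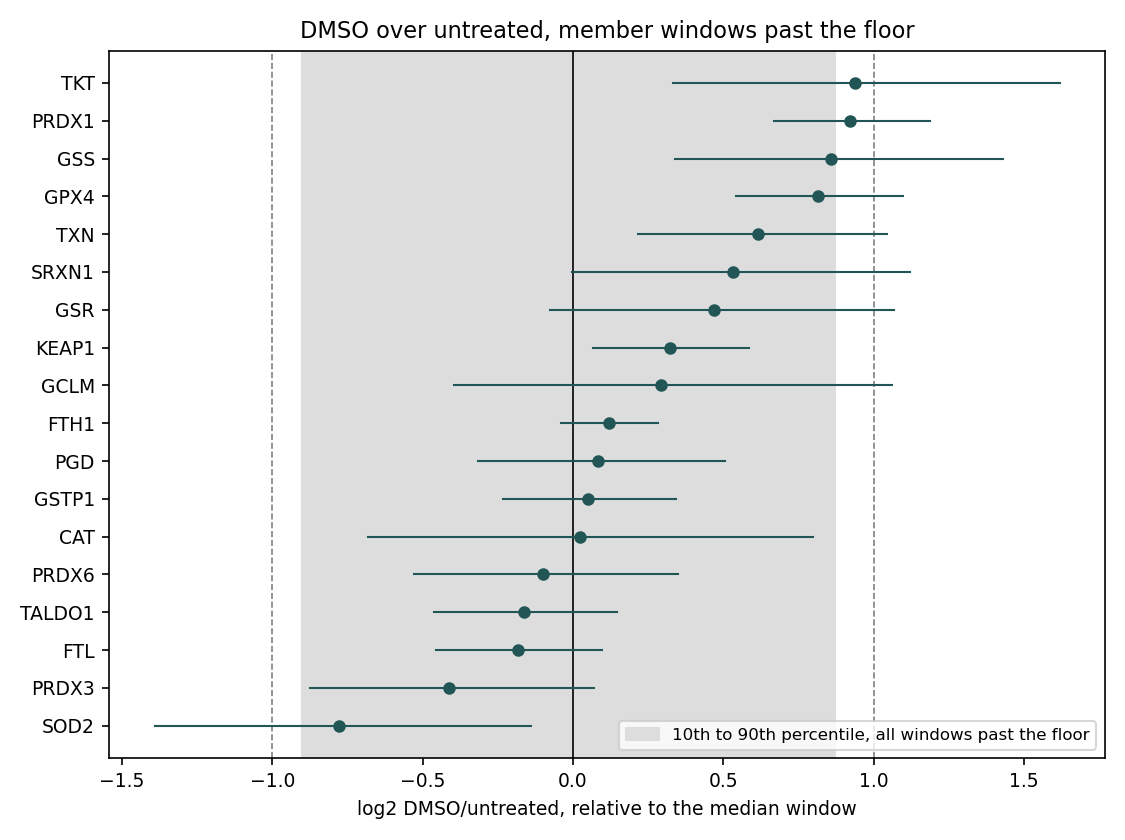
Log2 DMSO/untreated ratio relative to the median window for the 18 windows past the floor, with exact intervals for counting error; the grey band runs from the 10th to the 90th percentile of all windows past the floor (-0.90 to 0.87) and dashed lines mark 2-fold. All points lie within 2-fold, from SOD2 at -0.78 to TKT at 0.94.

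Among the regulators, reads were assigned to KEAP1, the NRF2 inhibitor, with 145 untreated and 855 DMSO reads. Its ratio was 0.32 (0.07 to 0.59), within the spread of all windows. The window named NFE2L2 (chr2:177389698-177395697) held 0 reads in both libraries. It has no base of its own, and its centre lies 127971 bases upstream of the nearest RefSeq start of the gene. That start and a second entry (positions 177264727 and 177264131 on chromosome 2) fall in the window named AC079305.1 (chr2:177261359-177267358), which shares no base. It held 217 untreated and 996 DMSO reads, or 102 and 240 CPM, and stood at -0.04 (-0.25 to 0.18), near the median window. AC079305.1 is annotated on the plus strand and NFE2L2 on the minus strand, and reads of the strands cannot be told apart here. MAFG, the small MAF partner, had 0 reads in a window with no base of its own, next to AC145207.4 with 361 and 559 reads. SQSTM1, whose protein p62 draws KEAP1 into autophagy, had 15 and 57 reads, all from 555 bases at -3000 to -2446 from the window centre, upstream of the gene and inside MGAT4B.

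The 5 genes of glutathione past the floor all stood above the median window, as 50% of all windows do, and 2 of them had intervals wholly above it, as 22.5% of all windows do; with 5 windows nothing particular to these genes is read from this. GCLM, the modifier subunit of the enzyme that starts glutathione synthesis, had 20 untreated and 116 DMSO reads and a ratio of 0.29 (-0.39 to 1.06). GCLC, the catalytic subunit, had 0 reads in a window without own bases that lies 71870 bases from its RefSeq start. GSS, which completes glutathione, had 33 and 283 reads and stood at 0.86 (0.34 to 1.43), in a window where MYH7B covers 3160 bases. GSR, which regenerates reduced glutathione, had 31 and 203 reads and stood at 0.47 (-0.08 to 1.07). GPX4 had 122 and 1013 reads and stood at 0.81 (0.54 to 1.10), and its RefSeq gene lies wholly inside the window. GSTP1, a glutathione transferase that conjugates electrophiles, had the same 122 untreated reads but 596 with DMSO, and stood at 0.05 (-0.23 to 0.34). The intervals of GPX4 and GSTP1 do not overlap, although both windows have 6000 own bases and equal untreated counts. ABCC1, an exporter of glutathione conjugates, had 10 and 61 reads, below the floor. The 5 glutathione windows past the floor had a median of 0.47.

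In the thioredoxin and peroxiredoxin system PRDX1 stood higher than PRDX3 and PRDX6. PRDX1 had 138 untreated and 1235 DMSO reads and stood at 0.92 (0.67 to 1.19), close to 2-fold and at percentile 91.2 of all windows past the floor. PRDX3, the mitochondrial peroxiredoxin, had 50 and 177 reads and stood at -0.41 (-0.87 to 0.07). Per kb, PRDX1 was 2.76 times PRDX3 in the untreated library and 6.98 times with DMSO. PRDX6, which reduces phospholipid peroxides, had 55 and 242 reads and stood at -0.10 (-0.53 to 0.35). TXN, which keeps peroxiredoxins reduced, had 57 and 413 reads and stood at 0.62 (0.22 to 1.05). SRXN1, sulfiredoxin, which repairs overoxidised peroxiredoxins, had 32 and 219 reads and stood at 0.53 (-0.00 to 1.12). These 5 windows had a median of 0.53 and ran from -0.41 to 0.92, so the family did not stand together.

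The remaining members of that system could not be read at their starts or were low. TXNRD1, the cytosolic thioredoxin reductase, had 3 untreated and 15 DMSO reads over 6000 own bases around its upstream start. Its downstream start, 71253 bases further on, lies in no window of the table, so the level of the gene is not given by this window. TXNRD2, the mitochondrial reductase, had 24 and 33 reads, all from 214 bases that lie outside the gene, and no ratio is given. PRDX4, the peroxiredoxin of the endoplasmic reticulum, had 3 and 6 reads in a window whose centre lies 3231 bases before its RefSeq start. PRDX2, the abundant peroxiredoxin of red cells, had 0 reads in a window that RNASEH2A, AC018761.2 and THSD8 cover in full. PRDX5 had 0 reads over 36 own bases beside TRMT112.

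The enzymes that remove superoxide and hydrogen peroxide were poorly covered. CAT had 20 untreated and 96 DMSO reads and stood at 0.02 (-0.68 to 0.80). SOD2, the mitochondrial superoxide dismutase, passed the floor through a window (chr6:159742187-159748186) with 31 and 85 reads, at -0.78 (-1.39 to -0.14), the lowest ratio of the set. That window holds no RefSeq start of SOD2, and the gene WTAP covers all its 6000 bases. Its other window had 1 and 1 reads. Another pair of SOD2 starts falls in the window named WTAP, with 113 and 1099 reads, which stood on the other side of the median window at 1.04 (0.76 to 1.34). The windows thus give no single direction for SOD2, and reads of the genes WTAP and SOD2 cannot be told apart in either. A further SOD2 start, 51946 bases downstream of the centre of the window chr6:159742187-159748186, lies in no window of the table. The level of the gene is therefore not given by these windows. SOD1, the cytosolic superoxide dismutase, had 0 and 5 reads over 121 own bases.

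Heme, iron and quinone genes differed widely in what was read. FTH1 had 377 untreated and 1934 DMSO reads, the most of the set, and stood at 0.12 (-0.04 to 0.28). FTL, the ferritin light chain, had 136 and 565 reads and stood at -0.18 (-0.46 to 0.10). Its own 1334 bases begin 1666 bases past the RefSeq start of a gene of 1571 bases, so its reads, at 47.7 and 102 CPM per kb, lie beyond the annotated end, and GYS1 covers 179 of these bases. HMOX1, heme oxygenase 1, which breaks heme down to biliverdin and is a classic NRF2 target, had 0 untreated and 2 DMSO reads although 3939 own bases include its start (chr22:35377361-35383360). A count of 0 allows up to 1.40 CPM in the untreated library, and no ratio is given. NQO1, a quinone reductase, had 4 and 4 reads over 344 own bases that lie 2657 to 3000 bases into the window's downstream side, inside the gene. AKR1C1, an aldo-keto reductase, had 14 and 40 reads over 6000 own bases, and OSGIN1, an oxidative stress-induced growth inhibitor, 0 over 87.

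Genes of the pentose phosphate pathway gave unequal ratios. TKT, transketolase, had 24 untreated and 218 DMSO reads and the highest ratio of the set, 0.94 (0.33 to 1.62). TALDO1, transaldolase, had 112 and 472 reads and stood at -0.16 (-0.46 to 0.15). The intervals of the pair do not overlap. PGD, 6-phosphogluconate dehydrogenase, had 61 and 305 reads and stood at 0.08 (-0.32 to 0.51). Per kb, TALDO1 was 4.67 times TKT in the untreated library and 2.17 times with DMSO. ME1, malic enzyme, had 9 and 79 reads, below the floor.

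The 4 genes past the floor with the antioxidant response element core in a searched promoter did not stand at the ends of the range. KEAP1 (0.32), GCLM (0.29), PGD (0.08) and GSTP1 (0.05) passed the floor, and ME1 and TXNRD1 did not. Genes past the floor whose matched promoters lack the core, and whose own bases hold the start, ran from PRDX3 at -0.41 to TKT at 0.94. Promoters of FTH1, GSR, GSS, PRDX1 and PRDX6, also past the floor, were not searched. These genes ran from PRDX6 at -0.10 to PRDX1 at 0.92, with GSS at 0.86, so carriers of the core near the high end could have been missed. With 4 windows this is a description of these libraries.

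Ratios moved with read count, and the members hold many reads. The median ratio of all windows past the floor was -0.21 in the fifth with fewest reads (100 to 147) and 0.12 in the fifth with most (476 or more), and 7 of the 18 members lay in the latter. With that trend subtracted the members' median was 0.23. A check on promoter GC content was void, since 61.3% of windows past the floor and 13 of 18 members had a value.

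**Figure D4:**
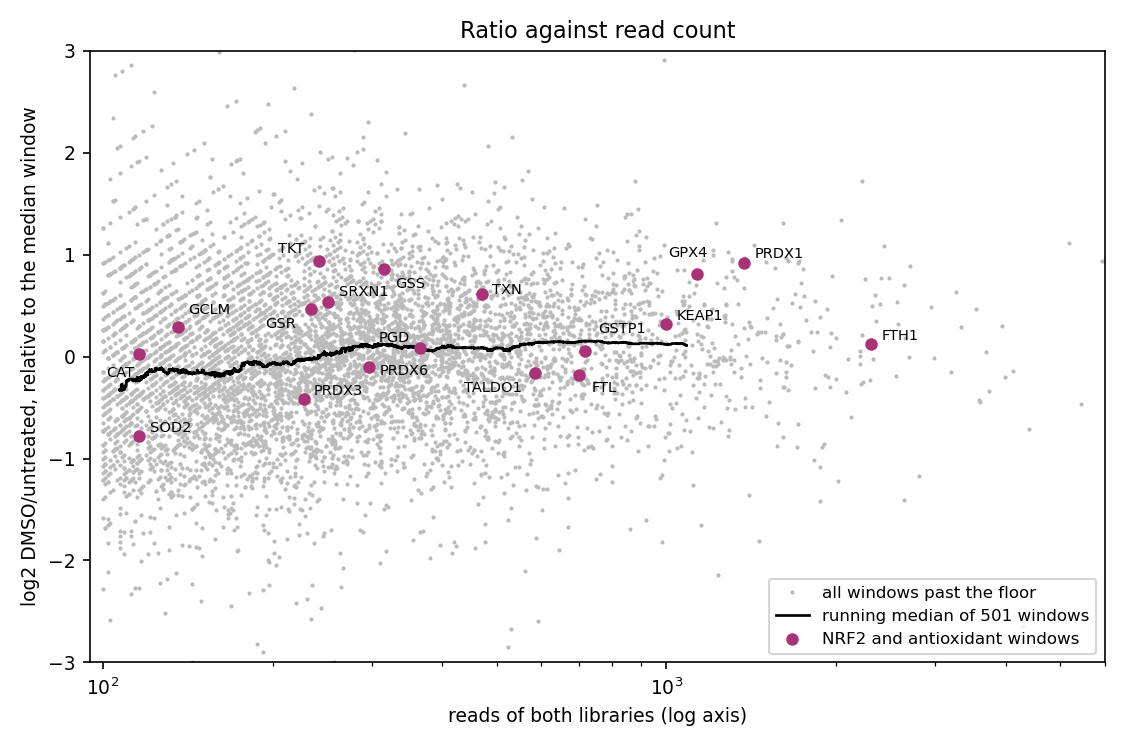
Log2 DMSO/untreated ratio relative to the median window against the reads of both libraries (log axis), for all windows past the floor (grey, of which 43 lie outside the axes), their running median (line) and the 18 member windows (purple). PRDX1 (0.92) and GPX4 (0.81) lie at the right, past the end of the line, and SOD2 (-0.78) lies below the line at the left.

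Other NRF2 and antioxidant genes, a list of 62 that are no members, gave 22 windows past the floor with a median ratio of 0.17. Of these, 3 lay at least 2-fold above the median window, against 7.04% of all windows, and 2 at least 2-fold below, against 7.97%. MAFK, a small MAF partner of NRF2 and of the erythroid factor NF-E2, had 4 untreated and 237 DMSO reads over 6000 own bases that hold its start (chr7:1527702-1533701), a ratio of 3.58 (2.28 to 5.54). EPHX1, microsomal epoxide hydrolase, had 10 and 150 reads (1.65, 0.75 to 2.76), and CBR1, a carbonyl reductase, 8 and 95 (1.31, 0.30 to 2.58). CUL3, the scaffold of the ligase that KEAP1 serves, had 17 and 158 reads and stood at 0.97 (0.25 to 1.79). On the low side SLC7A11, which imports cystine for glutathione, had 129 and 70 reads (-3.11, -3.56 to -2.69). TXNIP, which binds and inhibits thioredoxin, had the highest CPM of the list, 197 untreated and 135 with DMSO, and stood at -1.82 (-2.01 to -1.64). ABCC4, a transporter, had 49 and 262 (0.18), RBX1, the RING subunit of the same ligase, 57 and 263 (-0.03), and HMOX2, the constitutive heme oxygenase, 84 and 319 (-0.31). TXN2, mitochondrial thioredoxin, had 70 and 263 reads (-0.33), and AKR1A1, an aldehyde reductase, 37 and 137 (-0.35).

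The line's erythroid identity was visible, and the libraries differed in reads of neural and glial markers. Sums of CPM and counts at 0 are given per library and do not compare the libraries. Of 16 erythroid marker windows 13 reached 1 CPM in both libraries, summing to 651 CPM untreated and 998 with DMSO. The 8 of them past the floor all stood below the median window, with a median of -0.49. Of 9 lymphoid and myeloid markers 2 reached 1 CPM in both, summing to 33.7 and 72.9 CPM, with 3 at 0 untreated and 0 at 0 with DMSO. The 2 of them past the floor stood below the median window, with a median of -0.35. Of 7 hepatocyte markers 1 reached 1 CPM in both, summing to 3.28 and 21.7 CPM, with 5 at 0 untreated and 1 with DMSO. Of the hepatocyte markers 0 passed the floor. Of 10 neural and glial markers 0 reached 1 CPM in both. The neural and glial markers summed to 1.40 CPM untreated, with 7 of 10 at 0, and to 220 CPM with DMSO, with 3 of 10 at 0. The 3 of them past the floor had a median ratio of 7.59: GFAP had 0 and 514 reads, MT3 0 and 188 and NTRK2 0 and 119. These reads move with the DMSO library, as do the member ratios above the median window, and their part in those ratios was not tested. The treatment, the depth and the ribosomal RNA share each differ between the same 2 libraries and cannot be told apart.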

How the data were processed

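For the PRO-seq libraries of K562 cells the submitters' processing notes name Bowtie2 2.3.5, featureCounts 2.0.1 and hg38; counting options are not given in the sources used here. The authors deposited a count per library for 36814 windows. The deposited TPM values equal CPM (tolerance 1e-06), because window length is constant, and were left aside. The run-on lasted 5 min at 30 °C, per the labels' protocols.

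Unshared bases were computed from the windows. Counts were scaled with TMM factors of edgeR 4.0.16 (R 4.3.3), and log2 ratios used a prior count of 0.5 scaled to effective library size. With 1 library per group no model was fitted, no p-value is given, and intervals cover counting error only. RefSeq starts, spans and promoters are those of GRCh38.p14. On simulated counts with known changes, 100% of 100 windows raised 4-fold and of 93 lowered 4-fold lay past 2-fold, as did 0.0164% of 6081 unchanged windows; that simulation holds counting error alone.

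Members and lists were chosen with earlier results of these data known. Named were all members, of the other pathway genes the 6 with most CPM and, past the floor, the 4 with the highest ratio and the 4 with the lowest, and the 3 leading neural markers; leading markers of the other lists are given as counts, and 1 of the other pathway genes that this rule names is not reported here. Alternatives covered scaling (DESeq2 1.42.0 size factors among them), centring, floor, prior count, depth, overlap, trend and threshold.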

Additional observations from a re-analysis of the deposited data

Results flagged for a closer look

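Reads appeared in windows of other names that hold RefSeq starts of genes described above, outside the comparisons of the named windows and above the limit of 3 reads that a count of 0 allows. The window AC079305.1, which holds both RefSeq starts of NFE2L2, had 217 untreated and 996 DMSO reads. The window WTAP, which holds 2 starts of SOD2, had 113 untreated and 1099 DMSO reads, at a ratio of 1.04 (0.76 to 1.34). How these reads divide between the genes and strands of each window was not tested. Outlying samples and differences between groups could not be sought with 1 library each.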

How the results depend on the processing

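No paired analysis was possible because each group has 1 library, so no library could be omitted either. Member windows at least 2-fold higher numbered 0. Without centring they numbered 16 with library totals (66% of all windows), and 4 each (GSS, PRDX1, TKT and GPX4) with DESeq2 size factors (14.5%), upper quartile (14.1%) and TMM scaling (15%). They numbered 2 at a floor of 1 CPM and 20 reads (PRDX1 and TKT; 12.7%), 2 with any read (HMOX1 and SOD1; 27.7%) and 5 at 1.5-fold (GSS, PRDX1, TXN, TKT and GPX4; 18.6%). Member windows at least 2-fold lower numbered 0, but 1 at 1 CPM and 20 reads (TXNRD2; 12.2%), 6 with any read (both of SOD2, and PRDX4, NQO1, TXNRD2 and AKR1C1; 25.2%) and 1 at 1.5-fold (SOD2; 19.6%). The members' median of 0.21 was 1.48 with library totals and reversed to -0.31 with any read, where 29 windows count, many with few reads. In the 16 windows with the start in own bases, an alternative added after seeing the data, it was 0.31, and in 13 that no other coding gene enters, also added, 0.29. The median of the other pathway genes, 0.17, was 1.44 with library totals and reversed to -0.43 at a floor of 20 CPM (3 windows), to -0.18 with any read, and to -0.16 (9 windows) when DMSO was thinned to equal reads outside ribosomal RNA and mitochondrial windows, a setting added after seeing the data. Floors and thinning change which windows enter, and with them the median window that ratios are relative to. With any read GCLM moved from 0.29 to -0.10 and PRDX1 from 0.92 to 0.53 through that median alone. Beyond that the cause was not tested. The count at 1 CPM in both libraries ran from 21 to 26 under its alternatives. Of 120 single member values under settings relative to the median window, 111 kept their sign. Settings of floor and overlap shift all members by the same amount, so a kept sign there says little. Over all settings 169 of 192 values kept their sign. Of the 192, 42 moved outside their interval for counting error, 18 of them with library totals. Of the 17 windows below the floor 11 have under 1 kb of their own, so overlap limits those, and 6 have more. Untreated depth limits ratios past the floor too: GCLM, CAT and TKT rest on 20 to 24 untreated reads.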
